A study of Mus musculus with 24 samples.

Results

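The nuclear-encoded subunits of the mitochondrial respiratory chain were followed by their mRNA levels in mouse C3H 10T1/2 cells, a fibroblast line from mouse embryo. Members were taken by gene name, as all genes in the deposited files named Nduf followed by a, b, c, s or v and a number, Sdha to Sdhd, Uqcr, Cox4 to Cox8 followed by a letter, or Atp5, without names holding -ps. This gave 83 of the 35260 gene identifiers in the files, with 37 in complex I, 4 in complex II, 8 in complex III, 17 in complex IV and 17 in complex V. Ndufa4, which carries a complex I name, was counted with complex IV, where its protein is found. The names fixed the membership and no measured value was used.

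The oxidative phosphorylation system passes electrons from NADH through complex I and from succinate through complex II to ubiquinone, then through complex III and cytochrome c to complex IV, which reduces oxygen. Complexes I, III and IV pump protons, and complex V, the ATP synthase, uses the gradient to make ATP. Most subunits are encoded in the nucleus and a small set of core membrane subunits in mitochondrial DNA. Skeletal muscle carries more of this machinery than fibroblasts do and, in mice, uses muscle isoforms of some complex IV subunits, Cox6a2, Cox7a1 and Cox8b, beside or in place of the widely expressed Cox6a1, Cox7a2 and Cox8a.

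The study asked how MyoD, the transcription factor that turns 10T1/2 fibroblasts into muscle-like cells, acts with and without LncMyoD, a long noncoding RNA. The groups were 2 LncMyoD knockout cell clones, clone 1 and clone 2, and wild-type cells, each given both MyoD adenovirus and LncMyoD plasmid, MyoD adenovirus, LncMyoD plasmid, or no treatment, with 2 libraries for each of the 12 groups. Cells grew in 10% fetal bovine serum, with 2% horse serum after MyoD-induced transdifferentiation. No group with an empty virus or empty plasmid was used here. Each knockout genotype is a single clone, so the knockout and other properties of a clone cannot be told apart. The labels do not say that the 2 libraries of a group came from separate cultures, so p-values cover only how far these libraries vary, which may be technical.

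Poly(A) RNA was copied into full-length cDNA, and the libraries carry no strand information. The deposited value is TPM, a length-corrected share of the transcripts in a library. TPM was summed per gene and divided by a library size factor, the median of ratios over the 7508 genes above 0 in every library, and the result is called scaled TPM below. Aligned fragments came to between 2.43 and 5.93 gigabases in each library, worked out from the ratio of deposited coverage to FPKM. The libraries of clone 2 stood apart: sequence in the ribosomal repeat window held 2.68% to 7.90% of TPM in clone 2, against 36.8% to 70.0% in clone 1 and 55.6% to 69.2% in wild type, and size factors were 2.79 to 4.33 in clone 2, 0.378 to 0.578 in clone 1 and 0.433 to 0.715 in wild type. The 36.8% was clone 1 MyoD replicate 1, where 39.0% of TPM was assigned to no gene. The next lowest clone 1 library held 59.2%. Replicate 1 stands alone for its group in fits without clone 1 MyoD replicate 2. Deposited Myod1 was 930 to 1222 TPM in clone 2, 1665 to 3641 TPM in clone 1 and 3301 to 3735 TPM in wild type with the virus, and at most 3.76 TPM in any library without it. All 10 fibroblast markers were detected in every line. The 11 skeletal muscle markers in the files summed to 222 to 404 scaled TPM in clone 2 with MyoD, 34.7 to 57.4 in clone 1 with MyoD and 62.7 to 99.1 in wild type with MyoD; without MyoD the sum was 0.636 to 2.61 in clone 2, and all 11 were listed at 0 in clone 1 and wild type. The 4 cardiac muscle markers in the files summed to 16.3 to 31.4 scaled TPM in clone 2 with MyoD and 0.0395 to 0.973 without it. With MyoD they summed to 0 to 5.59 in clone 1 and 1.16 to 8.35 in wild type. Markers of adipocytes, macrophages, endothelium, epithelium and neurons summed to at most 11.02 scaled TPM in any library.

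With MyoD, clone 2 had higher mRNA levels of subunits of all 5 complexes. The summed level of complex I was 2377 ± 117 scaled TPM in clone 2 with MyoD and 1344 ± 52.3 without it (SD, n = 4 each, libraries with and without plasmid together). Complex II summed to 203 ± 19.96 with MyoD and 139 ± 8.69 without, and complex III to 830 ± 50.3 with MyoD and 438 ± 22.4 without. Complex IV reached 2029 ± 120 with MyoD and 1228 ± 42.0 without it, and complex V 1832 ± 113 and 1112 ± 61.2. The 4 libraries with MyoD lay above the 4 without MyoD in every complex, with log2 ratios of 0.82, 0.54, 0.92, 0.72 and 0.72 for complexes I to V. With TPM as deposited, without scaling, the 2 sets of libraries overlapped in complexes II, IV and V (log2 ratios 0.11, 0.29 and 0.29). These sums are descriptions without a test.

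In wild-type cells the same sums overlapped with and without MyoD. Complex I was at 235 ± 19.9 scaled TPM with MyoD and 213 ± 10.9 without, complex III at 58.7 ± 4.18 with MyoD and 55.0 ± 4.84 without, and complex IV at 248 ± 18.6 with MyoD and 250.02 ± 11.7 without (SD, n = 4 each). Values with and without MyoD overlapped in all 5 complexes in wild type, and likewise in clone 1, where complex I was at 190.1 ± 23.8 with MyoD and 194 ± 19.9 without.

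**Figure D1:**
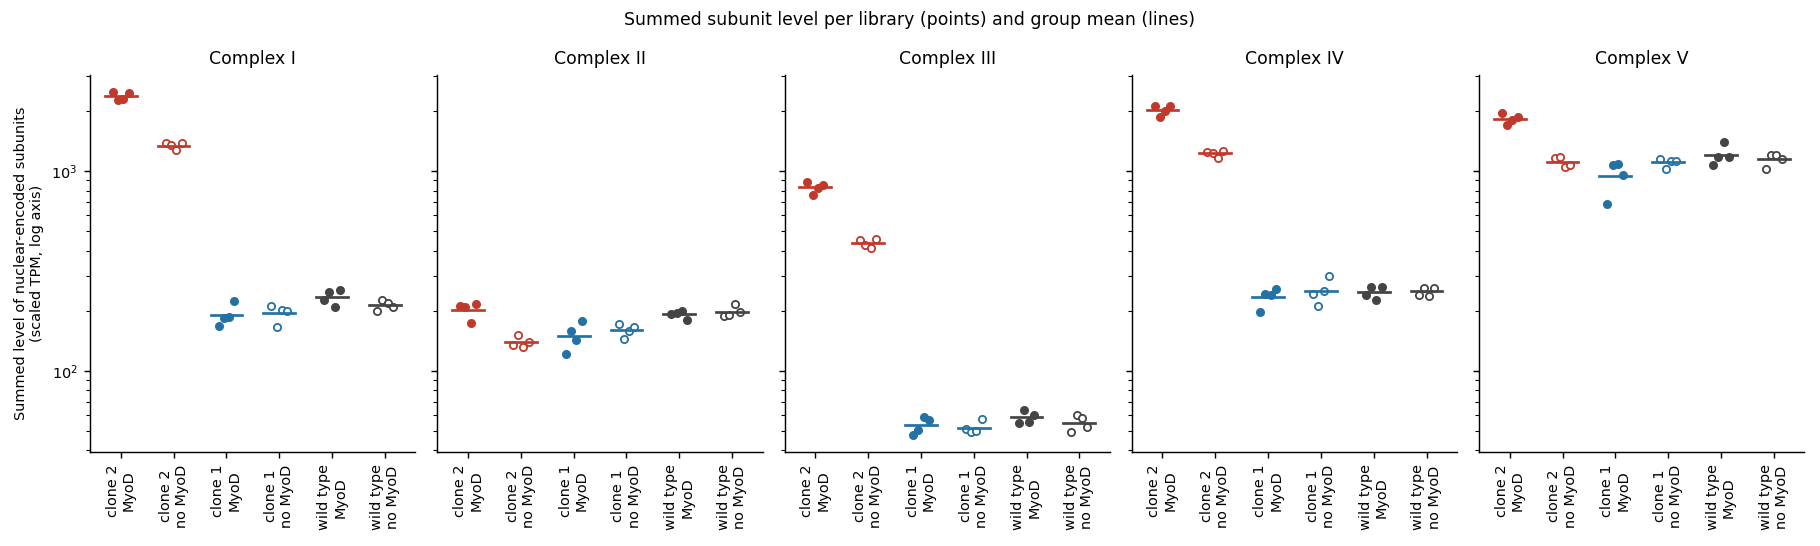
Summed level of nuclear-encoded subunits per complex (scaled TPM, log axis) in each library (points; filled with MyoD, open without) with group means (lines), 4 libraries per group. In clone 2 the libraries with MyoD lie above those without it in each complex, whereas in clone 1 and wild type they overlap; complexes I, III and IV are several-fold higher in clone 2 than in the other lines.

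Gene by gene, 82 of the 83 members had at least 1 TPM in at least 2 libraries and entered the test, limma with a mean-variance trend on log2(scaled TPM + 1) over all 24 libraries, with Benjamini-Hochberg adjustment over 17884 genes and calls at an adjusted p under 0.05. In clone 2, 43 of the 82 members (52.4%) were higher with MyoD and 0 were lower, where 5.24% of all genes tested were higher and 3.52% lower. The share of other coding genes called higher varied with mRNA length, as given below. The median log2 change of the members was 0.90, against 0.00460 over all genes, and 79 of 82 changes were positive. By complex, 17 of 37 rose in complex I, 2 of 4 in complex II, 4 of 8 in complex III, 10 of 16 in complex IV and 10 of 17 in complex V. The smallest called change was that of Cox4i1 and the largest that of Cox8b. In the groups without plasmid, which hold fewer libraries, 12 members were called, and 67 when the fit held the 8 libraries of clone 2 alone. With TPM left unscaled the median of all genes was -0.25 and that of the members 0.50, with 28 members higher and 1 lower. In the same libraries the summed fibroblast markers were at 1264 to 1697 scaled TPM with MyoD and 3060 to 3567 without it, and size factors were 2.79 to 3.44 with MyoD and 3.94 to 4.33 without it; their part in the result was not tested.

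Among complex I members, the accessory subunit Ndufa5 had 37.6, 39.2, 35.9 and 35.8 scaled TPM in clone 2 with MyoD, against 15.8, 13.9, 12.1 and 15.3 without it. The groups did not overlap, and the log2 change was 1.32 ± 0.28 (SE, adjusted p = 0.0063; 0.25 with a pseudocount of 0.1, which ends the call). Ndufa1, an accessory subunit of the membrane arm, had 114, 93.2, 102 and 125 scaled TPM with MyoD, against 50.9, 44.7, 42.6 and 49.6 without it, a log2 change of 1.19 ± 0.24 (adjusted p = 0.0041). Ndufa8, an accessory subunit on the intermembrane-space side, and Ndufs6, a zinc-binding subunit of the matrix arm, also rose, by 1.16 ± 0.22 and 1.14 ± 0.25 on the log2 scale (adjusted p = 0.0029 and 0.0080).

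The 7 nuclear-encoded core subunits of complex I hold its flavin and iron-sulfur centres and help form the quinone site. The core membrane subunits encoded in mitochondrial DNA are not among them. These 7 were set beside its 27 protein-coding accessory subunits, a split made after their values were seen. Of the 7 core subunits 1 was called higher with MyoD in clone 2, Ndufs7, which helps form the quinone site. It averaged 102 ± 3.69 scaled TPM with MyoD and 52.5 ± 9.39 without (SD, n = 4 each). The median log2 change was 0.63 for the core and 1.02 for the accessory subunits, of which 15 rose. The 7 core subunits also had longer annotated mRNAs, with a median of 977 nt against 625 nt. Ndufs1, an iron-sulfur core subunit, had 25.8, 21, 19.9 and 20.9 scaled TPM with MyoD in clone 2, against 19.8, 22.2, 21.2 and 20.1 without it, and the groups overlapped.

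In complex II, the membrane anchors were called and the catalytic subunits were not. The anchor Sdhc had 39.2, 37.7, 34.0 and 38.6 scaled TPM in clone 2 with MyoD, against 20.8, 20.7, 18.4 and 19.0 without it (log2 change 0.89 ± 0.13, adjusted p = 0.00053), and the anchor Sdhd changed by 0.91 ± 0.22 (adjusted p = 0.017). The flavoprotein Sdha, which oxidizes succinate, had a log2 change of 0.09 ± 0.20 (adjusted p = 0.95), and the iron-sulfur subunit Sdhb, the lowest member of complex II averaged over all libraries, one of 0.44 ± 0.39 (adjusted p = 0.67).

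In complex III, the small subunits Uqcrq, Uqcr10, Uqcrh and Uqcr11 rose, by 1.14 ± 0.27, 1.09 ± 0.17, 1.04 ± 0.20 and 0.96 ± 0.16 on the log2 scale. Uqcrh, the hinge protein beside cytochrome c1, had 167, 139.9, 150.3 and 162 scaled TPM with MyoD in clone 2, against 76.6, 70.2, 75.7 and 77.0 without it. The large structural core proteins Uqcrc1 and Uqcrc2 were not called, with changes of 0.23 ± 0.24 and 0.41 ± 0.32 (adjusted p = 0.75 and 0.59). The small subunit Uqcrb and Uqcrfs1 were not called either, so the calls did not take in every small subunit.

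In complex V, the largest called changes were in Atp5k and Atp5l, the e and g subunits of the membrane part that hold ATP synthase dimers together. Atp5k had 39.4, 43.3, 44.6 and 41.6 scaled TPM with MyoD in clone 2, against 18.6, 16.5, 12.1 and 14.9 without it (log2 change 1.40 ± 0.34, adjusted p = 0.016). The Atp5k call ended with a pseudocount of 0.1 (adjusted p = 0.31), and that of Atp5l (1.17 ± 0.30, adjusted p = 0.020) when any 1 of the 8 clone 2 libraries was left out (adjusted p = 0.051 to 0.070). The catalytic beta subunit Atp5b, the highest member averaged over all libraries, had 319, 252, 307 and 306 scaled TPM with MyoD in clone 2, against 276, 284, 250.5 and 250.1 without it, and was not called (0.16 ± 0.15, adjusted p = 0.72).

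**Figure D2:**
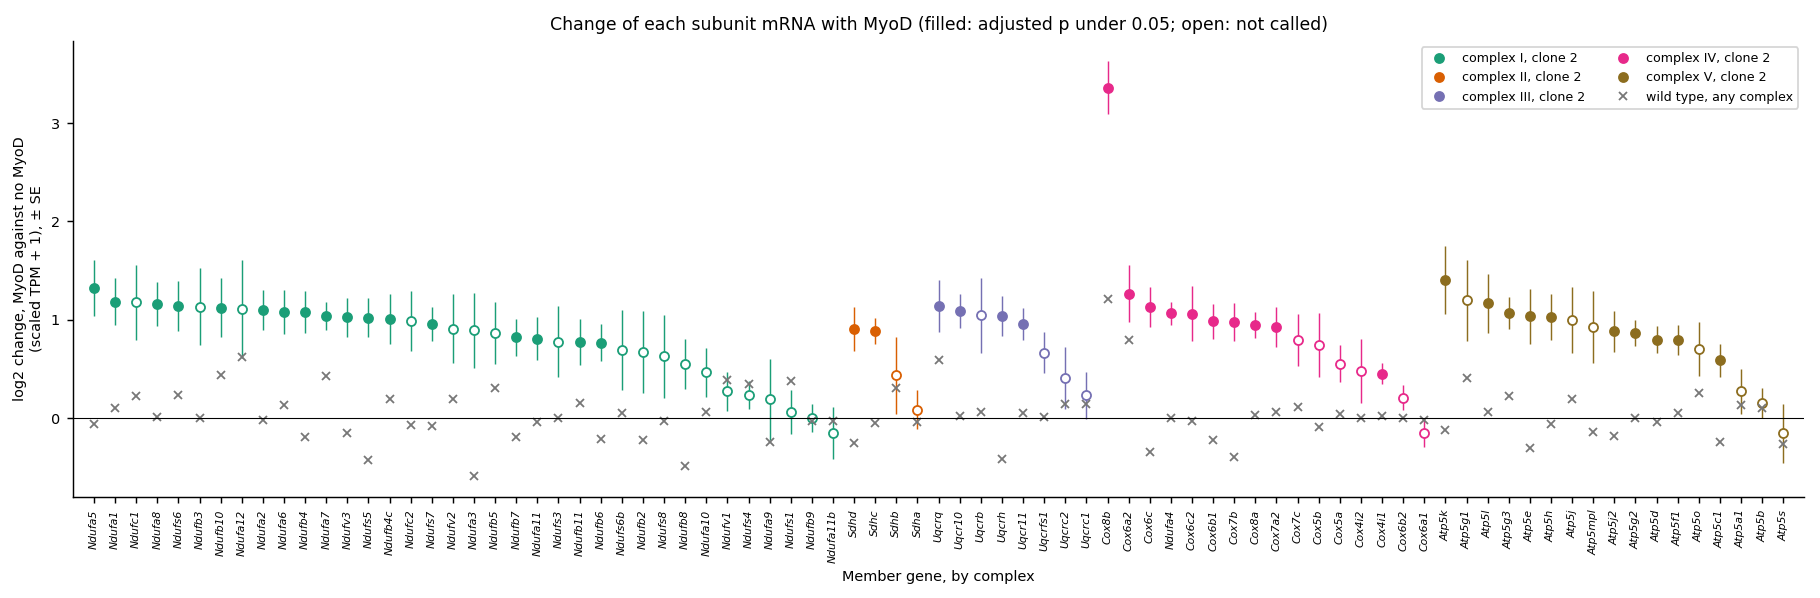
Log2 change with MyoD of the tested members in clone 2 (circles, ± SE; filled where called at an adjusted p under 0.05) and in wild type (crosses), ordered within each complex. Nearly all clone 2 changes lie above 0, with Cox8b at 3.36 and most called members between 0.45 and 1.40, whereas wild-type changes scatter around 0.

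In wild-type cells 0 of 82 members were called with MyoD, where 0.263% of all genes were called, and the median log2 change was 0.01. At an unadjusted p under 0.05 there were 6 members, and the smallest adjusted p was 0.10, for Cox8b; limma called 1 member with a pseudocount of 0.1. In clone 1 also 0 of 82 members were called, where 0.939% of all genes were, with 9 members at an unadjusted p under 0.05 and a median log2 change of -0.06. Leaving out clone 1 MyoD replicate 2 gave 8 calls in clone 1, 2 higher and 6 lower, and leaving out clone 1 MyoD plus plasmid replicate 1 gave 2.

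The MyoD response was larger in clone 2 than in wild type for 17 of 82 members and smaller for 0, by the test of the difference of the 2 responses, where the response of 1.39% of all genes was larger and of 1.17% smaller. They comprise 5 members of complex I, 1 of complex II, 3 of complex III, 6 of complex IV and 2 of complex V. Cox6c, a small complex IV subunit, had 299, 264, 269 and 285 scaled TPM with MyoD in clone 2 and 139, 137, 117 and 117 without it; in wild type it had 7.85, 6.4, 4.30 and 10.1 with MyoD and 7.90, 11.1, 8.89 and 8.35 without it. The groups were apart in clone 2 and overlapped in wild type, and the difference of responses was 1.47 ± 0.29 on the log2 scale (SE, adjusted p = 0.013). Ndufs5, an accessory subunit of complex I, and Uqcrh differed by 1.45 ± 0.28 and 1.45 ± 0.29 (adjusted p = 0.012 and 0.013). By the same test the response of Myod1 itself was smaller in clone 2 than in wild type (-1.69 ± 0.21, adjusted p = 0.00049). In clone 1 against wild type the difference of responses was called for 0 of 82 members, where 0.162% of all genes were called, with 4 members at an unadjusted p under 0.05.

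The count of 17 was 3 with TPM left unscaled, 10 with a pseudocount of 0.1, 42 with exon coverage in place of TPM, and 0 in the groups without plasmid. Leaving out single libraries gave 9 without clone 2 MyoD replicate 1 or clone 2 plasmid replicate 2, and 10 or 11 without wild-type untreated replicate 2, wild-type MyoD replicate 1, either clone 2 untreated replicate, clone 2 plasmid replicate 1 or clone 2 MyoD plus plasmid replicate 1.

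Across all treatments, clone 2 had far higher levels of most members than wild type. Of 82 members 73 were higher and 4 lower in clone 2, where 33.9% of all genes were higher and 21.1% lower, and the median log2 change was 2.81 against 0.13 over all genes. Here too the share of other coding genes called higher varied with mRNA length, as given below. In the deposited TPM, 77 of 83 members averaged 10 TPM or more in clone 2, against 10 in clone 1 and 13 in wild type. Cox6c was at 117 to 299 scaled TPM in the 8 clone 2 libraries (median 202) and at 4.30 to 11.1 in the 8 wild-type libraries (median 8.12), a log2 change of 4.42 ± 0.14 (SE, adjusted p = 1.1e-13). Uqcr11, a small subunit and the highest member of complex III averaged over all libraries, was at 121 to 274 in clone 2 (median 181) and at 5.82 to 9.89 in wild type (median 7.98), a change of 4.36 ± 0.11 (adjusted p = 9.9e-15). Neither gene's ranges overlapped. Ndufb9, the highest member of complex I averaged over all libraries, was at 144 to 167 in clone 2 (median 153) and at 8.13 to 11.4 in wild type (median 9.61); it did not differ with MyoD in clone 2 (log2 change 0.00 ± 0.14). In bulk RNA, a change in the share of cells that carry a transcript and a change in its amount per cell cannot be told apart. The ribosomal share given above was lower in clone 2 than in wild type, without overlap, and its part in the result was not tested.

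The complexes did not move alike between lines. Complexes I, III and IV summed to log2 ratios of 3.0, 3.41 and 2.67 for clone 2 over wild type, whereas complex II was at -0.21 and complex V at 0.28, with overlapping values in both. These last ratios depended on how levels were computed: complex II was at -0.64 with named transcripts only and -0.81 with exon coverage, both without overlap, and complex V turned to -0.23 and -0.14, with overlap. With TPM as deposited, without scaling, complexes II and V were at 2.36 and 2.86, without overlap. Complex V held 24.8% to 27.1% of the summed member level in the clone 2 libraries and 56.3% to 66.9% in those of clone 1 and wild type. The 4 members lower in clone 2 were Sdhc in complex II and Atp5b, Atp5s and Atp5g2 in complex V. Atp5b alone held 3.71% to 6.56% of the summed level in clone 2, 33.5% to 45.1% in clone 1 and 39.3% to 49.5% in wild type. Without Atp5b the complex V ratio was 1.62. Sdhc likewise dominated the complex II sum in wild type, with a mean of 176 scaled TPM against 28.6 in clone 2. The other 3 complex II members were called higher in clone 2. Sdha, Sdhb and Sdhd averaged 52.3, 45.5 and 44.8 in clone 2, against 5.95, 3.79 and 9.50 in wild type.

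Sdhc was at 18.4 to 39.2 scaled TPM in clone 2 (median 27.4) and at 156 to 196 in wild type (median 178), a log2 change of -2.65 ± 0.09 (SE, adjusted p = 3.2e-13). Atp5b was at 250.1 to 319 in clone 2 (median 280.0) and at 674 to 1033 in wild type (median 789), a change of -1.52 ± 0.11 (adjusted p = 1.7e-09). That change is for the gene as a whole, and coverage along Atp5b differed between the lines, as given below. Atp5g2, which encodes the c subunit of the rotor, was at 43.2 to 107 in clone 2 and 124 to 174 in wild type (-1.02 ± 0.09, adjusted p = 5.4e-08). Atp5s, a coupling factor rather than a structural subunit and the lowest member of complex V averaged over all libraries, changed by -1.46 ± 0.21 (adjusted p = 1.4e-05). With TPM as deposited, without scaling, the directions of Atp5b, Atp5s and Atp5g2 turned (1.05, 0.79 and 1.53), since all clone 2 values then stand higher, and Sdhc was no longer called (-0.11, adjusted p = 0.40).

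Read coverage along Atp5b differed between the lines in shape. The gene lies at chr10:128083273-128090391 on the plus strand (mm10), with 10 exons. In wild type the mean deposited coverage per base of exons 8 to 10 was 5.13% to 6.59% of that of exons 1 to 7 (median 5.96%, 8 libraries), and in clone 1 4.54% to 6.30%. In clone 2 it was 96.3% to 137% (median 113%). The drop began between exon 7, which ends at position 128086420, and exon 8, which starts at 128088321. This coverage is not normalized between libraries, so only its shape is compared. As deposited, exons 1 to 7 had 1475 to 2445 in clone 2 and 1939 to 3140 in wild type. Exons 8 to 10 had 1509 to 2820 in clone 2 and 126 to 167 in wild type. The lower Atp5b call rests on TPM summed over the gene and was not tested for these parts separately. Over all members with more than 1 exon and coverage at both ends, the median log2 ratio of coverage 3′ to coverage 5′ of the mRNA's midpoint was 0.12 to 0.22 per clone 2 library, -0.20 to -0.09 in clone 1 and -0.20 to -0.04 in wild type. Atp5b and Sdhc had the most negative difference between wild type and clone 2 of the members with such a value in both lines.

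**Figure D3:**
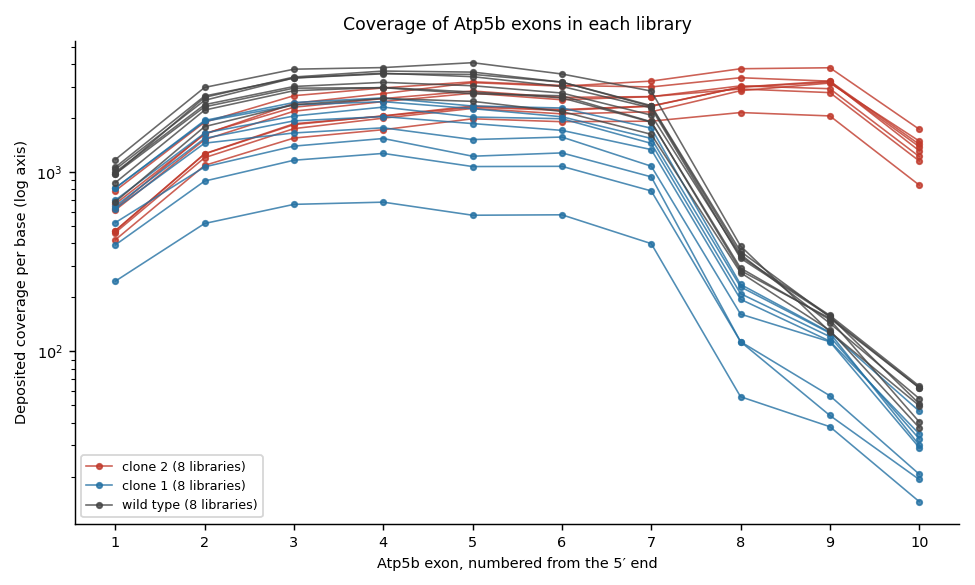
Deposited coverage per base (log axis, not normalized between libraries) of the 10 exons of Atp5b, numbered from the 5′ end, with a line for each of the 24 libraries. The clone 2 lines stay high to exon 9 and drop at exon 10, whereas the clone 1 and wild-type lines fall steeply after exon 7.

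The size of the clone 2 difference went with annotated mRNA length. Length here is the median over all annotated protein-coding transcripts of a gene. It can differ from the length of the mRNA that these cells express. Over the 78 tested members with an annotated coding transcript, Spearman's rho between the log2 change of clone 2 against wild type and mRNA length was -0.42, a description over genes that share the same libraries, and it was also -0.42 for the MyoD change in clone 2. The 36 members over 500 and up to 750 nt had a median change of 3.11 in clone 2 against wild type and the 11 over 1000 and up to 1500 nt one of 2.32. Other coding genes of the same lengths had medians of 0.72 and 0.74. Their medians were 0.57 up to 500 nt and 1.02 over 750 and up to 1000 nt. In longer classes they were 0.50 over 1500 and up to 2000 nt, 0.11 up to 3000 nt and -0.21 up to 4000 nt. In the longest class the median was -0.61. So above 1000 nt the change fell with length among other coding genes as well. For MyoD in clone 2, members over 500 and up to 750 nt had a median of 0.91, against 0.27 among other genes. For those over 1000 and up to 1500 nt the medians were 0.47 and 0.20. In the shorter class 21 of 36 members and 15.5% of other genes were called higher with MyoD. In the longer class it was 3 of 11 and 7.28%, and 1.06% of other genes over 3000 and up to 4000 nt. In clone 2 against wild type, 33 of 36 members and 54.8% of other genes in the shorter class were higher. In the longer class it was 11 of 11 and 54.8%. Of other genes over 3000 and up to 4000 nt 20.8% were.

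**Figure D4:**
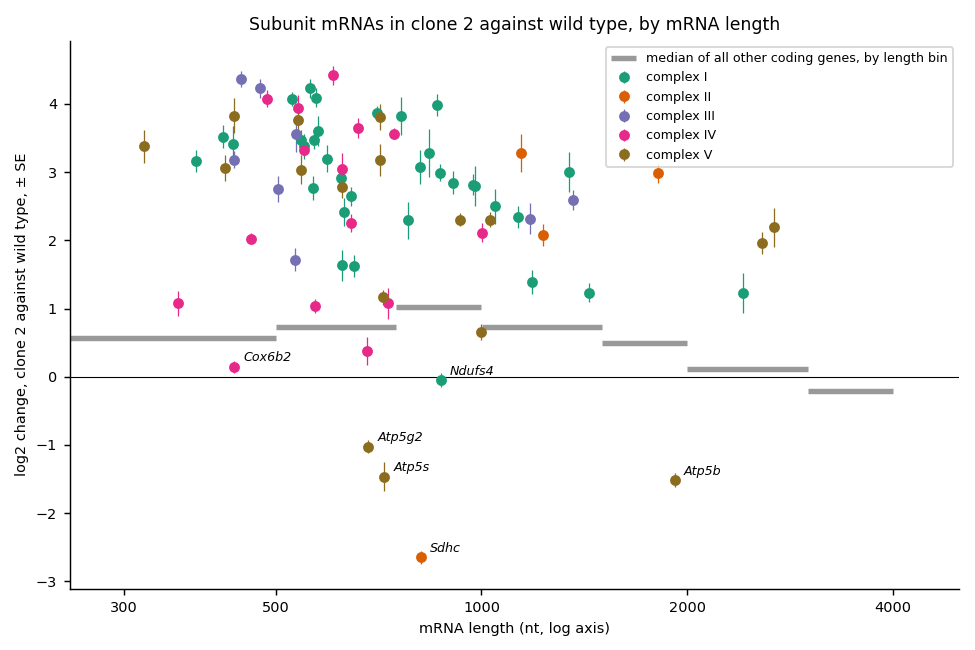
Log2 change of each member in clone 2 against wild type (± SE) by its annotated mRNA length (log axis), coloured by complex. Grey bars give the median of all other coding genes in each length class. Most members lie above the grey bars, with Sdhc, Atp5b, Atp5s and Atp5g2 well below 0 and Ndufs4 at -0.05.

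In clone 1 against wild type few members were called. Of 82 members 7 were lower and 0 higher in clone 1 (8.54%), where 8.29% of all genes were lower and 3.87% higher, a share near the background. Ndufb10, an accessory subunit of complex I, was at 1.33 to 5.26 scaled TPM in the 8 clone 1 libraries (median 3.75) and 4.5 to 13.1 in the 8 wild-type libraries (median 7.80), which overlap (log2 change -1.05 ± 0.21, adjusted p = 0.0032). Atp5h, subunit d of the ATP synthase stalk, changed by -0.79 ± 0.17, and Ndufs4, an accessory subunit of the matrix arm, by -0.68 ± 0.10 (adjusted p = 0.0051 and 0.00024). Sdhc, Ndufb9 and Cox8b were also lower, at -0.37 ± 0.09, -0.37 ± 0.10 and -0.60 ± 0.19. When only transcripts naming the gene were used, the calls of Atp5h, Sdhc and Ndufb9 ended (-0.87, -0.13 and -0.56, adjusted p = 0.058, 0.38 and 0.17), and that of Cox8b ended too (-0.44, adjusted p = 0.14). The count was 29, all lower, with TPM left unscaled, where the median of all genes was -0.14, and 14 with exon coverage, 7 higher and 7 lower. It was 15 without clone 1 MyoD replicate 2 and 11 without clone 1 MyoD plus plasmid replicate 2.

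The LncMyoD plasmid gave 0 calls among 82 members over all lines by limma, where 0.00559% of all genes were called, with 6 members at an unadjusted p under 0.05 and changes of -0.54 to 0.46. Leaving out clone 1 MyoD replicate 2 gave 1 call. The difference of the plasmid's effect between lines was not tested.

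The muscle isoforms of complex IV, Cox8b, Cox6a2 and Cox7a1, were low in every line, and of them Cox8b and Cox6a2 were called higher with MyoD in clone 2. Cox8b (chr7:140898945-140900446, minus strand, mm10) had 11.4, 5.01, 10.8 and 11.6 scaled TPM in clone 2 with MyoD and was listed at 0 in all 4 libraries without it. In wild type it had 1.45, 0.623, 0.860 and 2.85 with MyoD and was listed at 0 without it, and in clone 1 it was listed at 0 in all 8 libraries. The fitted change was 3.36 ± 0.27 in clone 2 (SE, adjusted p = 7.7e-07) and 1.21 ± 0.27 in wild type (adjusted p = 0.10), values that depend on the pseudocount where a group is at 0. The difference of these responses was 2.15 ± 0.38 (adjusted p = 0.0070), and 2.80 with an adjusted p of 0.067 at a pseudocount of 0.1. As a share of Cox8a plus Cox8b, Cox8b was 1.504% to 3.13% in clone 2 with MyoD and 2.33% to 9.29% in wild type with MyoD. So the higher Cox8b level of clone 2 stood beside a higher Cox8a level, at 398, 328, 333 and 365 scaled TPM in clone 2 with MyoD, against 23.9, 26.2, 22.3 and 27.8 in wild type with MyoD.

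Cox6a2 had 3.12, 0.671, 1.93 and 1.44 scaled TPM in clone 2 with MyoD and 0, 0, 0.170 and 0.262 without it (log2 change 1.27 ± 0.29, adjusted p = 0.010). In wild type with MyoD it had 0.474, 1.27, 1.71 and 0, and it was listed at 0 in wild type without MyoD and in all clone 1 libraries. Without clone 2 MyoD replicate 1 the clone 2 call was lost. Cox7a1 did not reach the filter: it had 0.119, 0, 0.235 and 0.856 in clone 2 with MyoD and was listed at 0 in every other library. The hypoxia-responsive lung isoform Cox4i2 had 1.14, 0.947, 2.48 and 1.67 in clone 2 with MyoD and 1.02, 0.583, 0.784 and 0.783 without it. It was listed at 0 in wild type and in 7 of 8 clone 1 libraries, with 3.80 scaled TPM in the other. Cox6b2, known from testis, stayed at or below 0.495 and was listed at 0 in clone 1 and wild type.

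Of the widely expressed partners in clone 2, Cox8a, Cox7a2, Cox6b1, Cox7b and Cox4i1 rose with MyoD, by 0.95 ± 0.13, 0.93 ± 0.20, 0.99 ± 0.18, 0.98 ± 0.19 and 0.45 ± 0.11 on the log2 scale. The Cox4i1 change was 0.27 (adjusted p = 0.18) with size factors from the clone 2 libraries alone and 0.02 with TPM unscaled. Cox6a1, the highest member of complex IV averaged over all libraries, was not called: it had 211, 188, 206 and 235 scaled TPM in clone 2 with MyoD, against 216, 222, 236 and 254 without it, which overlap (-0.14 ± 0.15, adjusted p = 0.75). Ndufa4 rose by 1.07 ± 0.12 (adjusted p = 2.9e-05). The genes Atp5g1, Atp5g2 and Atp5g3 of the c subunit of ATP synthase encode the same mature protein with different targeting sequences. Atp5g2 and Atp5g3 rose with MyoD in clone 2, by 0.86 ± 0.13 and 1.07 ± 0.16 (for Atp5g3 an adjusted p of 0.079 with named transcripts only), while Atp5g1 was not called, with a log2 change of 1.2 ± 0.41 (adjusted p = 0.088). Atp5g2 made up 43.5% to 54.6% of their summed level in clone 2, 73.6% to 87.6% in clone 1 and 77.3% to 86.7% in wild type.

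**Figure D5:**
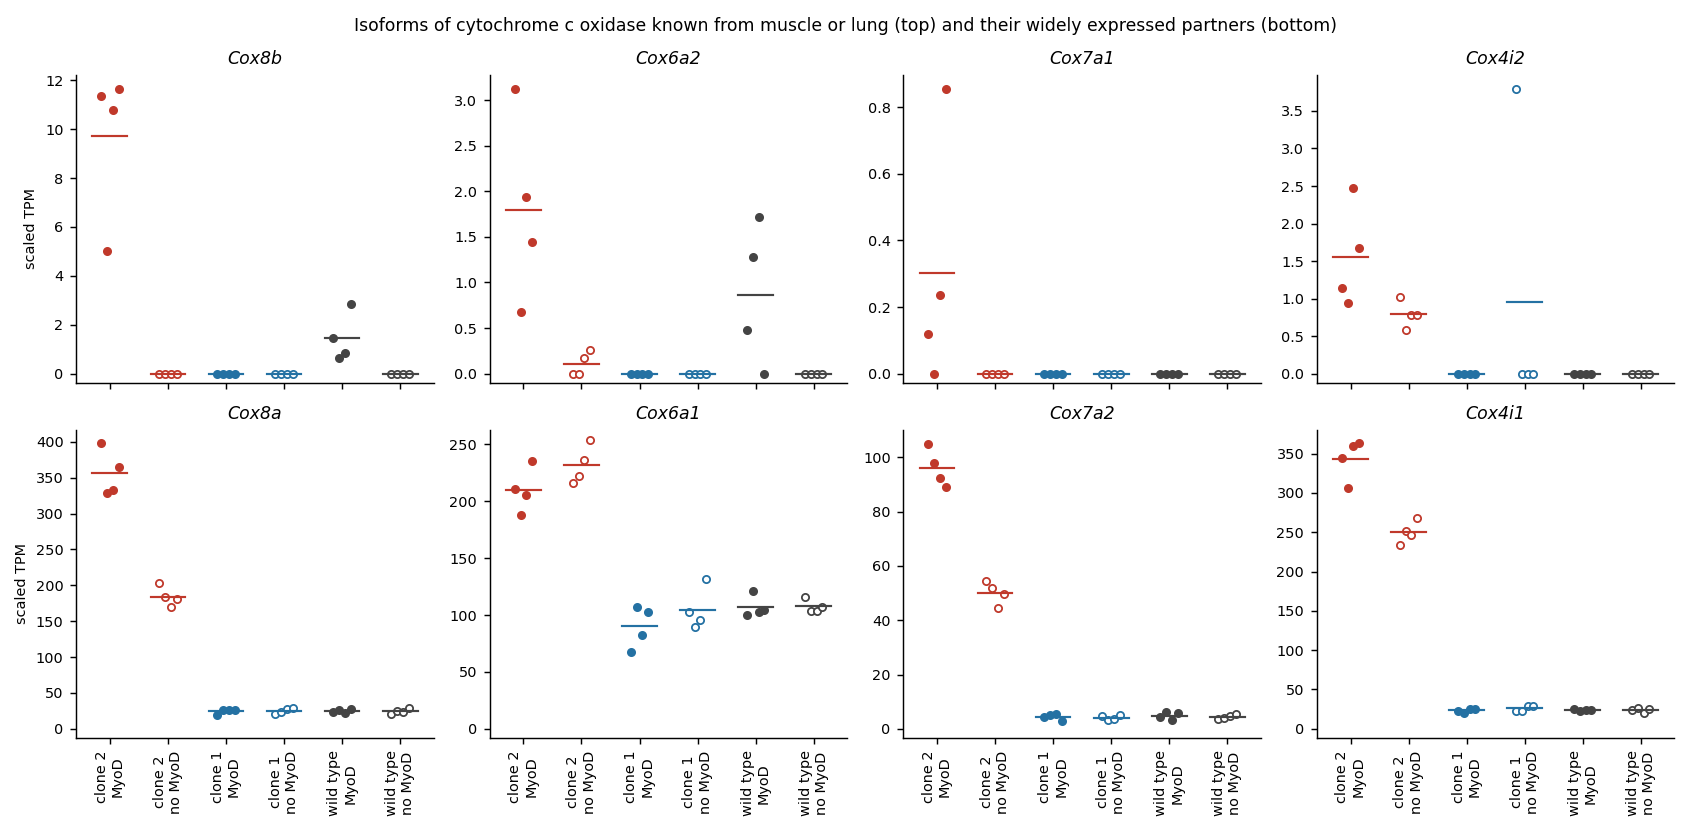
Scaled TPM of 4 complex IV isoforms known from muscle or lung (top) and of their widely expressed partners (bottom) in each library (points; filled with MyoD, open without) with group means (lines). Cox8b is above 0 in the MyoD libraries of clone 2 and wild type alone, and Cox6a1 is the partner that does not stand higher with MyoD in clone 2.

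RefSeq promoter windows (GRCm38.p6) were matched for 63 of the 83 members. Shown are the 250 bases before the annotated start of Cox8b, which was listed at 0 wherever MyoD was not given, and of Cox6a1, which did not rise with MyoD. In Cox8b (chr7:140900447-140900696, minus strand) the capitals mark CAGCTG, the E-box form that MyoD is known to bind, 19 bases before the start; in Cox6a1 (chr5:115348959-115349208, minus strand) they mark CTTCCGG, an ETS family motif read on the other strand as CCGGAAG, 16 bases before the start.
Cox8b: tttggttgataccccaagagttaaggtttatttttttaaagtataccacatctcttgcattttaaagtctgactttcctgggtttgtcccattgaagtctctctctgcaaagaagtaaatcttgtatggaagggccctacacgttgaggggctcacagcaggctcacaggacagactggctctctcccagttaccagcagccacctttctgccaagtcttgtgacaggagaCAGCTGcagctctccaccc
Cox6a1: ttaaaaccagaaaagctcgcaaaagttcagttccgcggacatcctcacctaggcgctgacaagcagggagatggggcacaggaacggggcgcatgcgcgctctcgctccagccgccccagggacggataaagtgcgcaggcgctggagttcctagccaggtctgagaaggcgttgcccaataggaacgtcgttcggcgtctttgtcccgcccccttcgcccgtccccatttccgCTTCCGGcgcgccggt
On both strands, CAGCTG was found in 6 of 68 member windows (8.82%) and in 13% of the 32851 windows in the table, CANNTG, which contains CAGCTG, in 58.8% and 66.2%, and CCGGAAG in 17.6% and 6.91%. The 6 members with CAGCTG were Atp5b, Cox8b, Ndufa8, Ndufb10, Ndufs5 and Ndufv2. Of these 6, 4 were called higher with MyoD in clone 2. So were 9 of the 12 members with CCGGAAG and 21 of the 37 tested with CANNTG, where 43 of all 82 were. Atp5b, with CAGCTG 39 bases before its start, was not called. Cox8a and Cox7a2 were called, with neither CAGCTG nor CCGGAAG in their windows. These matches describe the letters only.

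Other mitochondrial genes were read from lists. The 13 mitochondrially encoded subunits, the partners of the members in complexes I, III, IV and V, were higher with MyoD in clone 2 in 12 of 13 cases, with a median log2 change of 0.89; the largest was mt-Co3, a core subunit of complex IV, at 1.02 ± 0.18 (SE, adjusted p = 0.0016). In wild type 0 of 13 were called (median -0.09). Of 45 assembly factors tested, 5 rose with MyoD in clone 2, among them Cox17 and Cox14 of complex IV assembly and Uqcc2 of complex III assembly (1.48 ± 0.43, 1.23 ± 0.20 and 1.41 ± 0.36). Of 17 electron carriers and entry enzymes 3 rose, with cytochrome c, Cycs, at 0.95 ± 0.25 (adjusted p = 0.021) and the electron transfer flavoproteins Etfb and Etfa. Of 78 mitochondrial ribosomal proteins 8 rose (median 0.62), of 18 genes of the TCA cycle and pyruvate dehydrogenase 0 were called (median 0.28), of 19 glycolytic gene identifiers (Aldoa has 2) 6 rose (median 0.47), led by the muscle phosphoglycerate mutase Pgam2, and of 14 regulators of mitochondrial genes 0 were called (median -0.02). The percent called over all genes is as given above for this comparison, with 5.24% higher. Among other coding genes in the length classes up to 1000 nt, 11.6% to 16.1% were higher. The lists were not matched to other genes by length.

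Cytosolic ribosomal proteins, a class chosen after values were seen, were also higher: 51 of 76 rose with MyoD in clone 2 (median 0.93), and 73 of 76 were higher in clone 2 than in wild type (median 2.90). Proteasome core and lid subunits, chosen likewise, were higher with MyoD in clone 2 in 5 of 37 cases (median 0.48) and higher in clone 2 than in wild type in 35 of 37 (median 2.67). With MyoD in clone 2, 5.24% of all genes were higher. Among other coding genes the share was 11.6% to 16.1% in the length classes up to 1000 nt. The 2 classes were not matched to other genes by length. In clone 2 against wild type, where 33.9% of all genes were higher and 21.1% lower, 30 of 45 assembly factors were higher and 5 lower (median 1.26), 61 of 78 mitochondrial ribosomal proteins were higher and 6 lower (median 2.03), and 9 of 18 TCA cycle genes were higher and 4 lower (median 0.39), with Ogdh, a subunit of the oxoglutarate dehydrogenase complex, at -3.32 ± 0.12. Of 14 regulators 3 were higher, Tfam, Esrra and Gabpa, and 5 lower, among them Tfb1m and Pprc1. Of the 13 mitochondrially encoded subunits 10 were higher and 2, mt-Nd5 and mt-Nd4l, lower.

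Of the members, 4 are annotated as processed pseudogenes, Cox6c2, Ndufa11b, Ndufb4c and Ndufs6b. Their reads can be split with the parent genes, and their values are uncertain. Cox6c2 and Ndufb4c were called higher with MyoD in clone 2, by 1.06 ± 0.28 and 1.01 ± 0.25.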

How the data were processed

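mRNA was measured in 24 libraries, 2 for each of 12 groups. Per the submitters' processing notes, the tools were StringTie 1.3.3, HISAT2 2.1.0, SAMtools 1.3, Trimmomatic 0.36 and bcl2fastq 2.19 with genome mm10; per the file headers, transcripts were assembled with StringTie 2.1.2 and the GENCODE vM21 annotation as guide. The authors' deposited values per transcript are TPM, coverage per base and FPKM. No read counts were used, so how many reads support a value is not known.

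TPM was summed per gene, and transcripts without a reference gene went to the gene sharing at least 50% of their exonic length. Genes that a library does not list were set to 0, although a missing assembly could also leave them out. Libraries were scaled by the median of ratios. Tests used limma 3.58.1 in R 4.3.3 on log2(scaled TPM + 1), keeping genes that reached 1 TPM in 2 or more libraries, with 1 mean per group over all 24 libraries (12 residual degrees of freedom). This scale understates changes of low genes. MyoD comparisons average the groups with and without plasmid (4 against 4 libraries) and line comparisons all treatments (8 against 8). Tables and figures were made with Python 3.11.15. The steps were tested on simulated data.

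Members, gene lists and tests were chosen with earlier results of these data known. Genes named are the isoform groups, up to 8 largest called changes each way per comparison, the highest and lowest member per complex, and members at 0 in a whole line; other members named were chosen after their values were seen. Cox7a2l, Cox7b2, Cox8c, Ndufa4l2 and Ndufa13 were not analysed here. Cyc1, the gene of cytochrome c1 in complex III, does not match the name rule and is not in the sums and counts. The values of 1 member that entered the tests and counts are not reported here. Alternatives were TPM as deposited, a pseudocount of 0.1, no filter, named transcripts only, exon coverage, a replicate block, groups without plasmid, and each library left out.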

Additional observations from a re-analysis of the deposited data

Results flagged for a closer look

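The MyoD response differed between clone 2 and wild type, by the test of the difference of the 2 responses (limma, adjusted p under 0.05), for 17 members, all larger in clone 2. On the log2 scale the differences were 2.15 for Cox8b, 1.47 for Cox6c, 1.45 for Ndufs5, 1.45 for Uqcrh, 1.37 for Cox7b, 1.26 for Ndufb4, 1.21 for Cox6b1, 1.17 for Ndufv3 and 1.12 for Ndufa2. They were 1.07 for Uqcr10, 1.06 for Ndufa4, 1.03 for Ndufs7, 0.93 for Sdhc, 0.91 for Cox8a, 0.90 for Uqcr11, 0.86 for Atp5g2 and 0.84 for Atp5d. The range of the ribosomal share did not overlap between these lines, and its part in the difference was not tested.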

How the results depend on the processing

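The count of 17 members with a larger response in clone 2 than in wild type was 3 with TPM unscaled, 10 with a pseudocount of 0.1, 11 with named transcripts only, 42 with exon coverage, 0 without plasmid groups and 9 to 16 with single libraries left out. The 43 calls with MyoD in clone 2 became 12 without plasmid groups and 67 with the 8 clone 2 libraries alone (chosen after seeing the data), and 29 to 36 with single libraries left out. The 7 calls of clone 1 against wild type became 29 unscaled, 14 with exon coverage (7 higher, 7 lower), 4 without plasmid groups and 5 to 15 with libraries left out. MyoD in wild type gave 1 call with a pseudocount of 0.1 and 0 to 1 with libraries left out; in clone 1 it gave 1 with named transcripts, 1 without plasmid groups and 0 to 8 with libraries left out. The clone 1 response difference gave 0 to 2 and the plasmid 0 to 1; clone 2 against wild type gave 77 to 78.

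For the summed level in clone 2 with MyoD, the log2 ratio unscaled was 0.39, 0.11, 0.49, 0.29 and 0.29 for complexes I to V and 0.34 for all members, and with exon coverage 0.91, 0.68 and 1.01 for complexes I to III. For clone 2 over wild type it was 5.58, 2.36, 5.99, 5.24, 2.86 and 4.13 unscaled, 2.65, -0.64, 3.04, 2.22, -0.23 and 1.11 with named transcripts, and -0.81, 2.23 and -0.14 for complexes II, IV and V with exon coverage. For clone 1 over wild type, all members were at -0.58 unscaled, -0.022 with named transcripts and 0.043 with exon coverage. Unscaled, Atp5b, Atp5s and Atp5g2 turned to 1.05, 0.79 and 1.53 in clone 2 against wild type. Of the results for named genes, 360 kept direction and call under the alternatives, 61 lost the call and 3 turned; with libraries left out, 697 kept them and 71 lost the call. The cause was not tested.

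Replicate numbers did not pair the libraries: over 66 pairs of groups, same-numbered deviations correlated between -0.035 and 0.048. With the replicate block 42 members were called with MyoD in clone 2, and the other counts were within 1.5 times the unblocked ones. In deposited TPM, 73 members in clone 1 and 70 in wild type averaged under 10; whether this limited the calls there was not tested.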
